A study of Rattus norvegicus with 6 samples.

Results

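The 10 genes described here encode enzymes that release arachidonic acid, convert it to prostaglandins or lipoxygenase products, or inactivate prostaglandins, and they were measured in the rat metrial gland. They form a named list of phospholipases, cyclooxygenases, prostaglandin synthases, a degrading enzyme and lipoxygenases, among which Alox15, Pla2g2a and Ptgs2 were chosen by their measured difference between the oxygen groups of these same arrays. All 10 had probe sets, 13 of the 31042 tested, out of 14217 genes with a symbol of their own. RNA came from 3 samples of rats kept at 10.5% oxygen (hypoxia) and 3 samples of rats kept at 21% oxygen (ambient). All were pregnant, the exposure ran from gestation day 6.5 to day 13.5, and each sample was hybridised to 1 Affymetrix rat array. The labels give no strain, animal age or pooling, and do not state whether the 3 samples of a group are 3 animals. P-values therefore refer only to the variation among these samples, some or all of which may be technical.

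The arrays resembled each other closely. Correlations over all probe sets lay between 0.995 and 0.997 within a group and between 0.989 and 0.993 across groups. Array medians lay between 6.44 and 6.47 on the log2 scale of the deposited values. The highest of 27 probe sets for bacterial transcripts, used as a guide to background, reached 5.003. Markers of the labelled tissue, Gzma excepted, exceeded that level on at least 1 array. They were 9 of 10 genes of uterine natural killer cells, 8 of 8 of decidual stroma, 6 of 6 of smooth muscle and 6 of 6 of endothelium. Some came near it, such as Igfbp1 at 5.28 on hypoxia replicate 3 and Wnt4 at 5.56 to 6.04. The beta-actin control, whose 3' probe set is read against its 5' probe set to judge RNA integrity, had a log2 difference between them of 0.67 ± 0.10 in hypoxia and 0.50 ± 0.07 in ambient (SD, n = 3 each), without overlap. The same difference for the GAPDH control was 0.0039 ± 0.049 in hypoxia and -0.03 ± 0.02 in ambient, with overlap. The part of RNA integrity in the differences below was not tested.

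Arachidonic acid is a polyunsaturated fatty acid held in membrane phospholipids and freed by phospholipases of the A2 class. Cyclooxygenases turn it into an unstable intermediate from which terminal synthases make prostaglandin E2, prostacyclin or prostaglandin D2, while lipoxygenases turn it into hydroxy fatty acids and leukotrienes. In the pregnant uterus of rodents, prostaglandins act in implantation, in the decidual reaction and on vessels, and their breakdown by 15-hydroxyprostaglandin dehydrogenase limits their action.

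Over the whole list, the groups were apart for 3 enzymes and overlapped for 7. Alox15 was 9.63-fold higher in hypoxia (95% interval 6.26 to 14.8), Ptgs2 was 3.12-fold higher (2.08 to 4.68), and Pla2g2a was 3.39-fold lower (2.60 to 4.41). The fold of Ptgs2 is set against a level at or near background, since 1 of its 3 ambient arrays exceeded the bacterial controls, and with 64 added to the linear values it was 1.68-fold. These are the 3 genes taken into the list because they differed, so their values are a description of the choice. They were the only members past the threshold (limma, adjusted p under 0.05 over all probe sets), with adjusted p-values of 0.00175, 0.0140 and 0.00254 that are given only for that description. The threshold was passed by 3.46% of all probe sets, by 2.34% with higher and 1.12% with lower values in hypoxia, and by 4.61% of genes represented by 1 probe set each. The groups did not overlap at 3 of the 13 member probe sets, those of the same 3 genes, against 25.3% of all probe sets. Ordered by the difference among the 14217 genes, Alox15 had rank 7 from the highest, Ptgs2 rank 51 from the highest and Pla2g2a rank 6 from the lowest. In a bulk tissue, fewer cells of a type and less RNA per cell cannot be told apart.

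**Figure D1:**
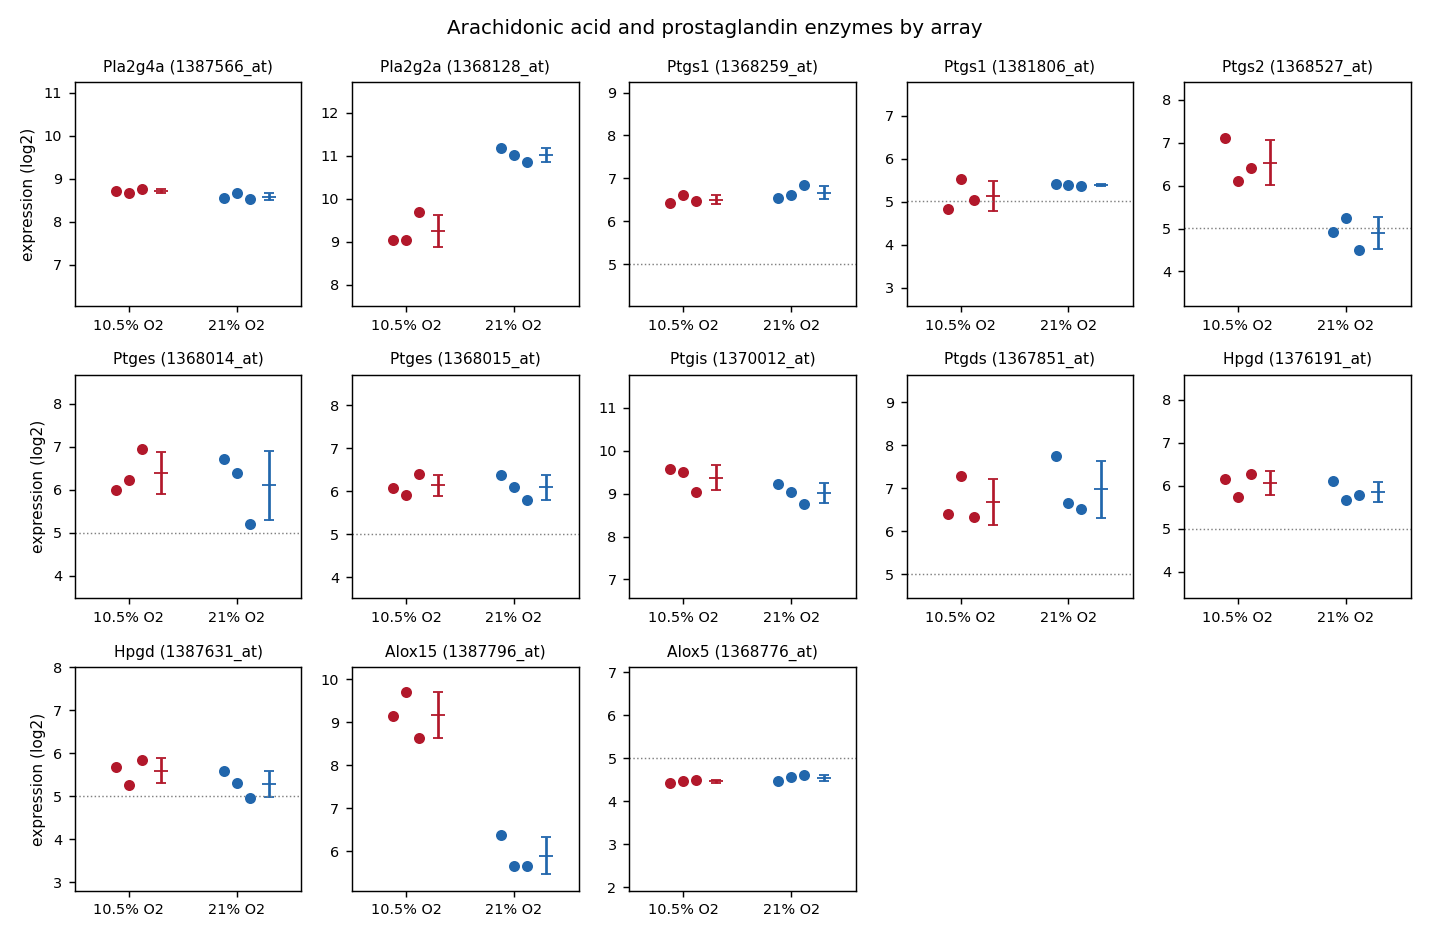
Expression (log2) of the 13 member probe sets on each array, with hypoxia (10.5% oxygen, red) left of ambient (21% oxygen, blue). Points are arrays 1 to 3 of each group, and the bars beside them give mean ± SD (n = 3). Every panel spans a log2 range of the same width, centred on its own values. The dotted line marks the highest bacterial control, 5.003, where it falls inside a panel. It lies below the panels of Alox15, Pla2g2a, Pla2g4a and Ptgis. The groups separate for Pla2g2a, Ptgs2 and Alox15 and overlap in the other panels.

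The release step is represented by 2 phospholipases of different kinds. Pla2g4a encodes cytosolic phospholipase A2 alpha, which acts on membranes inside the cell with a preference for arachidonic acid. Its probe set (1387566_at) read 8.71, 8.66 and 8.76 in hypoxia, against 8.55, 8.66 and 8.51 in ambient. The groups overlapped narrowly, since hypoxia replicate 2 and ambient replicate 2 had nearly the same level. The difference was 0.14 (SE 0.08, limma adjusted p = 0.369), and its 95% interval, unadjusted like all those given here, ran from -0.04 to 0.31, or 0.976 to 1.24-fold.

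Pla2g2a encodes a small secreted phospholipase A2 that acts outside the cell and is known from inflamed tissues and gut epithelium. Its probe set (1368128_at) read 9.04, 9.05 and 9.69 in hypoxia, against 11.19, 11.02 and 10.85 in ambient. All hypoxia arrays lay more than a log2 unit below all ambient arrays, with replicate 3 the highest of its group in hypoxia and the lowest in ambient. The difference was -1.76 (SE 0.17), and it stayed between -1.97 and -1.65 with any 1 array left out. Its promoter is shown because no other member was lower by this much. In the following 300 bases, RefSeq assembly GRCr8 chr5:156359475-156359774, plus strand, from 250 bases before to 50 after the start site, neither core of the hypoxia response element (ACGTG or GCGTG, either strand) occurred, so no letter is in capitals.
Pla2g2a: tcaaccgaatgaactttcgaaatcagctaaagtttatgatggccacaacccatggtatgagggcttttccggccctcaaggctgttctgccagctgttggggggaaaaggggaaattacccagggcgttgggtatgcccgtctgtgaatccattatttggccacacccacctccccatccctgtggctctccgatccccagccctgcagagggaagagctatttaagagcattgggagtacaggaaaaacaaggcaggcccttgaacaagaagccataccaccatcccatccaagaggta

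In the rat genome Pla2g2a sits in a cluster of related secreted phospholipase genes on chromosome 5. The 5 protein-coding genes on either side were looked up after the values of Pla2g2a had been seen, and 7 of these 10 were measured. None passed the threshold by limma (lowest adjusted p = 0.205), which is ordinary for so few when 4.61% of all genes passed. Their differences lay between -0.21 and 0.23. The cluster members Pla2g2c, Pla2g2f, Pla2g2d and Pla2g5 differed by -0.21, -0.19, 0.10 and -0.11. Pla2g5 lay at or below the highest bacterial control on every array, and Pla2g2d exceeded it on 2 hypoxia arrays and 1 ambient array, so for these a change in either direction could not be read well.

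Markers of other cell types moved beside Pla2g2a. Of 9 measured epithelial markers, 2 fell (Epcam, with a difference of -1.77, and Cdh1, with -1.07) and 0 rose, and their mean log2 level was 6.22 to 6.62 in hypoxia and 6.71 to 6.97 in ambient. That count was 0 without any 1 array except hypoxia replicate 1 and under a robust variance trend, and 1 with array weights or with no trend. It was 3 with quantile normalization, and 3 of 6 measured with the 40% of probe sets of lowest mean left out. Cldn4 and Foxa2 of that list were at bacterial control level. Of 10 natural killer cell markers 4 fell and 0 rose, with a mean level of 9.58 to 9.83 in hypoxia and 9.90 to 9.92 in ambient, and 1 fell without ambient replicate 3 or hypoxia replicate 1. Of 6 smooth muscle markers, 0 passed and 0 had an unadjusted limma p under 0.05. At that p, 6 natural killer cell markers were lower and 1 higher, and 4 epithelial markers were lower and 0 higher. Of all genes, 22.0% had such a p. The part of these cells in the difference of Pla2g2a was not tested.

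Of the 2 cyclooxygenases, Ptgs2 had groups that did not overlap and Ptgs1 had groups that did. Ptgs1, the constitutive enzyme known from platelets and many other tissues, had 2 probe sets. The brighter (1368259_at) read 6.43, 6.62 and 6.48 in hypoxia, against 6.55, 6.62 and 6.84 in ambient, a difference of -0.16 (SE 0.11, limma adjusted p = 0.452) with an interval from -0.40 to 0.08. The other (1381806_at) read 4.83, 5.52 and 5.04 in hypoxia, against 5.40, 5.38 and 5.37 in ambient, and differed by -0.26 (SE 0.16, adjusted p = 0.414). Ambient arrays were nearly equal there, while hypoxia replicate 1 fell below its bacterial controls. Both probe sets had overlapping groups and lower means in hypoxia. Of 5 measured platelet markers, 0 passed the threshold, with a mean level of 6.27 to 6.34 in hypoxia and 6.09 to 6.21 in ambient.

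Ptgs2 encodes the inducible cyclooxygenase, which in mice is needed for implantation and decidualization. Its probe set (1368527_at) read 7.10, 6.09 and 6.41 in hypoxia, against 4.93, 5.25 and 4.50 in ambient. The lowest hypoxia array was above the highest ambient array, and only ambient replicate 2 exceeded the bacterial controls of its own array, so the ambient level was at or near background. The difference was 1.64 (SE 0.26). Without ambient replicate 3, the lowest array, it was 1.45 and missed the threshold (limma adjusted p = 0.0578, range over the alternatives 0.00708 to 0.0578). With 64 added to the linear values before the logarithm, which damps low signals, it was 0.75, and with the 40% of probe sets of lowest mean left out Ptgs2 was not tested at all.

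**Figure D2:**
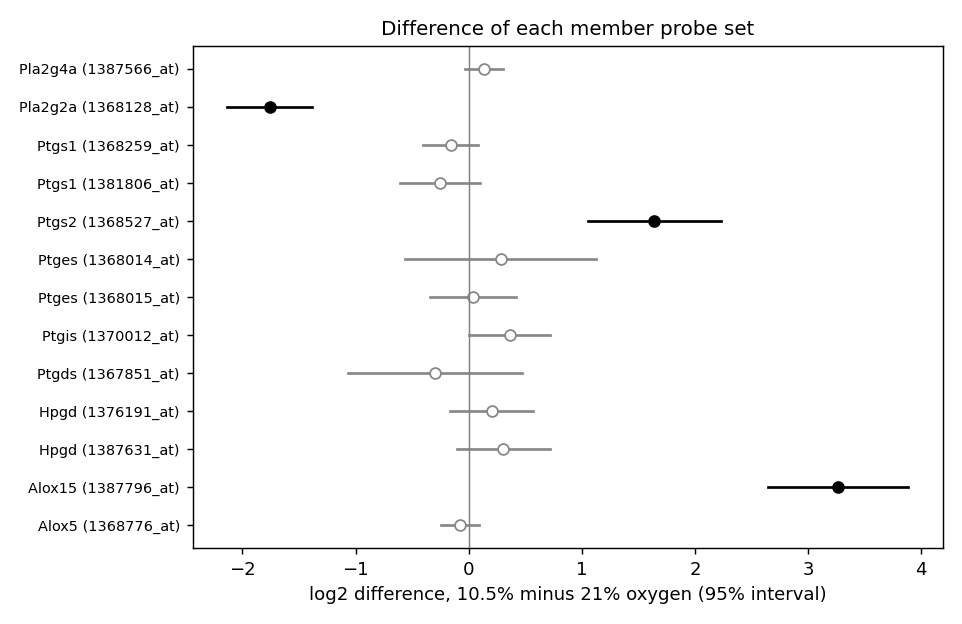
Log2 difference, 10.5% minus 21% oxygen, of each member probe set, with its 95% interval from limma (n = 3 arrays per group). Filled black points passed an adjusted p of 0.05, open grey points did not. Alox15 (3.27) and Ptgs2 (1.64) lie to the right of 0 and Pla2g2a (-1.76) to the left, while the intervals of the other probe sets reach or nearly reach 0.

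Ptgs2 and Pla2g4a are neighbours on chromosome 13 with no annotated protein-coding gene between them, and they point away from each other. The pair is shown because 1 of them stood apart between the groups and the other overlapped. Each line below gives 300 bases of RefSeq assembly GRCr8, read 5′ to 3′ on the gene's strand from 250 bases before to 50 after its start site. Capitals mark the cores ACGTG and GCGTG of the hypoxia response element on either strand, where overlapping matches form 1 run. The Ptgs2 window is chr13:64713813-64714112, plus strand, and that of Pla2g4a chr13:64572303-64572602, minus strand.
Ptgs2: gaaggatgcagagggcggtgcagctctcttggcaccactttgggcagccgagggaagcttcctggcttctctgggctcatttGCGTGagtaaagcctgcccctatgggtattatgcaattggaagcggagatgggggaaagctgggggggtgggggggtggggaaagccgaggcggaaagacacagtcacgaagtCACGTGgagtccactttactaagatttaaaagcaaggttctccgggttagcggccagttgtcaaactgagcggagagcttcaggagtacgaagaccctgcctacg
Pla2g4a: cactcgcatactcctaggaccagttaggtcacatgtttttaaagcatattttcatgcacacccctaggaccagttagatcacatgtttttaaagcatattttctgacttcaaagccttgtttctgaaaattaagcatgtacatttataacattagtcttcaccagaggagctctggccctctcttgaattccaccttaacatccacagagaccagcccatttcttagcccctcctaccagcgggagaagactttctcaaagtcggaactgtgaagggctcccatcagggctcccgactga

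Counted from the start site, the Ptgs2 window held GCGTG from position -168 and the palindrome CACGTG from position -55, which is the core ACGTG on both strands and also an E-box. The Pla2g4a window held neither core. Of the 10 members, 8 had a promoter in the table, all but Alox15 and Ptgis. Of these 8, Ptgs2, Hpgd, Ptgs1 and Ptgds held at least 1 core, and Ptgs2 and Hpgd held CACGTG. Among all 33469 promoters of that length, 41.6% held at least 1 core, 19.3% ACGTG, 29.7% GCGTG and 6.42% CACGTG. A match is a match of letters, not a binding site.

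Of the 5 protein-coding genes on either side of Ptgs2, 5 of 10 were measured and 0 passed by limma (lowest adjusted p = 0.136). With 4.61% of all genes passing, a count of 0 among so few is ordinary. The largest differences were -0.49 for Rgs18, a regulator of G protein signalling in blood cells, and 0.29 for Odr4. As with Pla2g2a, this look at neighbours was chosen after the values were seen.

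**Figure D3:**
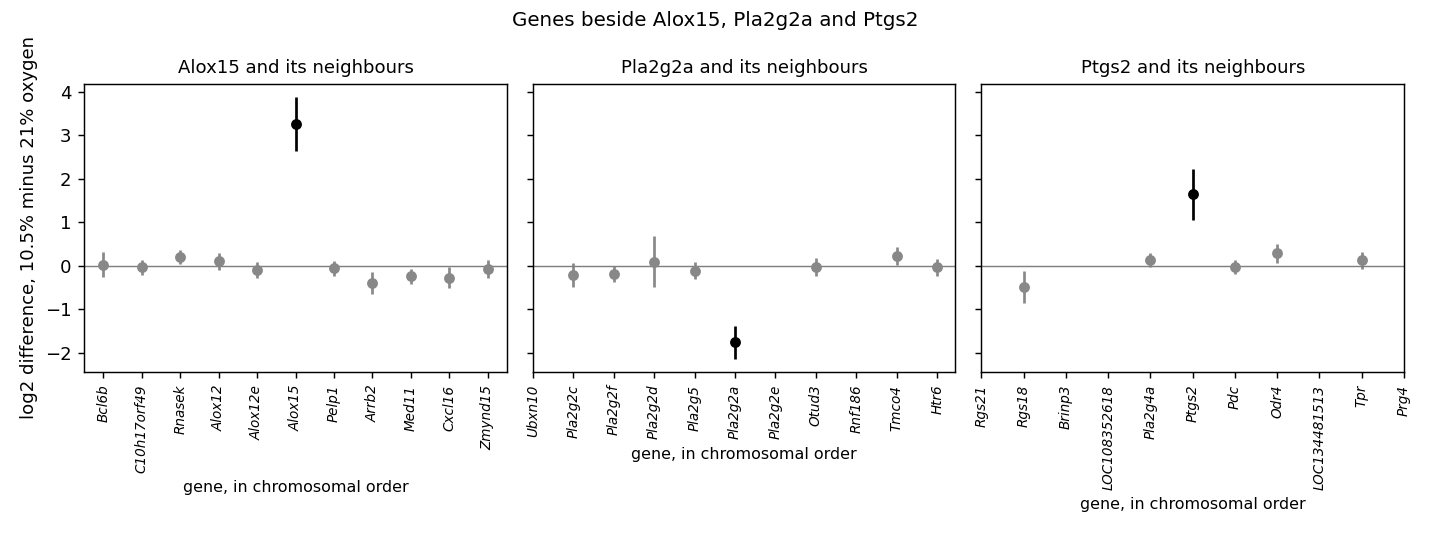
Log2 difference, 10.5% minus 21% oxygen, with 95% interval (n = 3 arrays per group), of Alox15, Pla2g2a and Ptgs2 (black) and of the 5 protein-coding genes on either side of each (grey), in chromosomal order. Genes without a point were not measured here. The neighbours lie between -0.49 and 0.29, and the 3 members at 3.27, -1.76 and 1.64.

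Of the terminal synthases, 3 were on the list, and none of their probe sets passed. Ptgis, prostacyclin synthase, makes a vasodilator that endothelium and decidua release. It read 9.57, 9.50 and 9.04 in hypoxia, against 9.22, 9.04 and 8.76 in ambient (1370012_at). Hypoxia replicate 3 lay within the ambient range and the other hypoxia arrays above it. The difference was 0.36 (SE 0.16, limma adjusted p = 0.251), or 1.28-fold, with an interval from 0.01 to 0.72.

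Ptges, the inducible microsomal prostaglandin E synthase, varied more between arrays of a group than between groups. Its first probe set (1368014_at) read 6.00, 6.23 and 6.95 in hypoxia, against 6.73, 6.40 and 5.20 in ambient. Ambient replicate 3 stood lowest by more than a log2 unit within its group. The difference of 0.28 (SE 0.37, limma adjusted p = 0.725) had an interval from -0.56 to 1.13, and it was -0.17 without ambient replicate 3. The second probe set (1368015_at) read 6.08, 5.91 and 6.41 in hypoxia and 6.38, 6.09 and 5.81 in ambient, with a difference of 0.04 (SE 0.17) that was -0.10 without ambient replicate 3 or hypoxia replicate 3. The sign of Ptges was thus not settled by these arrays.

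Ptgds, the lipocalin-type prostaglandin D synthase, read 6.41, 7.30 and 6.34 in hypoxia, against 7.75, 6.67 and 6.53 in ambient (1367851_at). Each group had 1 high array, replicate 2 in hypoxia and replicate 1 in ambient. The difference was -0.30 (SE 0.34, limma adjusted p = 0.679), with an interval from -1.07 to 0.47, and it was 0.085 without ambient replicate 1.

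Hpgd, 15-hydroxyprostaglandin dehydrogenase, starts the breakdown of prostaglandins E2 and F2 alpha. Its probe sets read 6.16, 5.75 and 6.29 in hypoxia, against 6.12, 5.68 and 5.79 in ambient (1376191_at), and 5.69, 5.27 and 5.83 in hypoxia, against 5.58, 5.32 and 4.97 in ambient (1387631_at). In both, hypoxia replicate 2 was the low array of its group. The differences were 0.20 (SE 0.16, limma adjusted p = 0.541) and 0.31 (SE 0.18, adjusted p = 0.40), and the groups overlapped at both.

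Among the lipoxygenases, Alox15 had the largest difference of the list. It encodes the 12/15-lipoxygenase, which in rodents makes mainly 12-hydroxy products from arachidonic acid and is known from maturing red cells, eosinophils, macrophages and epithelia. Its probe set (1387796_at) read 9.15, 9.71 and 8.64 in hypoxia, against 6.39, 5.66 and 5.65 in ambient. Every ambient array stood above its bacterial controls, and the difference was 3.27 (SE 0.27). With any 1 array left out it was between 3.00 and 3.53. With 64 added to the linear values it was 2.36. Alox5, the leukotriene-forming 5-lipoxygenase of leukocytes, read 4.42, 4.47 and 4.49 in hypoxia, against 4.46, 4.56 and 4.61 in ambient (1368776_at). All 6 values lay below the bacterial controls of their arrays, so Alox5 had no readable level in either group.

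The 2 lipoxygenase genes that lie directly beside Alox15 on chromosome 10, Alox12e and Alox12, were likewise at bacterial control level on all arrays, with differences of -0.09 and 0.11. Of the 5 protein-coding genes on either side of Alox15, all 10 were measured and 0 passed by limma (lowest adjusted p = 0.103). At the share of 4.61% over all genes, a count of 0 among so few is ordinary. The largest of these differences was that of Arrb2, an arrestin that dampens G protein-coupled receptors, at -0.39.

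Markers of cells known for Alox15 did not move alike. Of 8 measured red cell markers, 5 rose and 0 fell, and their mean log2 level was 7.64 to 7.96 in hypoxia and 6.72 to 7.00 in ambient. The count was 3 without hypoxia replicate 1 or any 1 ambient array. The difference was 2.30 for Alas2, the erythroid enzyme that begins heme synthesis, and 1.28 for the adult beta globin Hbb. Of 9 macrophage markers, 0 rose and 1, the hemoglobin scavenger receptor Cd163, fell by 1.05. Their mean level was 7.92 to 8.26 in hypoxia and 8.23 to 8.59 in ambient. At an unadjusted limma p under 0.05, 6 of the 9 were lower and 0 higher. Of the red cell markers, 7 were higher and 0 lower at that p, which 22.0% of all genes met. All 5 measured eosinophil markers (Prg2, Epx, Il5ra, Siglec5 and Ccr3) lay at or below the highest bacterial control on every array. Epithelia were also named above. Of their 9 measured markers, 2 fell and 0 rose, with differences between -1.77 and -0.003. That count changed with the processing, as given beside Pla2g2a. The part of red cells, macrophages and epithelia in the difference of Alox15 was not tested.

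Profiles over the 6 arrays were then set beside those of the rest of the array. After each profile was centred on its own mean, the genes with the smallest root mean square difference were taken among 12387 probe sets with 1 symbol and at least median level. Nearest to Alox15 were Rbp7, a retinol-binding protein (0.47), Alas2 (0.49) and Lmcd1, a LIM domain protein (0.55). Alas2 read 9.65, 10.14 and 9.18 in hypoxia, against 7.88, 7.09 and 7.11 in ambient. As for Alox15, its replicate 2 was highest and its replicate 3 lowest in hypoxia, and its replicate 1 was highest in ambient. Rbp7 was likewise lowest on replicate 3 in hypoxia, but highest on replicate 1 there and on replicate 2 in ambient. Lmcd1 was highest on replicate 3 and lowest on replicate 2 in hypoxia, and highest on replicate 1 in ambient. Counted in probe sets, Ahsp, which stabilises alpha globin, ranked 6 (0.68) and Hbb 47 (1.02). Hemgn, a nuclear protein of blood precursors, lay below median level and so outside these 12387. Its distance of 1.23 would have placed it at 106. These places were looked up after the values were seen, and only for the red cell markers with the largest differences. Gypc, Klf1, Slc4a1 and Epb42 of that list, with differences of 0.71, 0.36, 0.29 and 0.09, were not looked up.

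Nearest to Pla2g2a were Cd8a, a T cell co-receptor (0.34), C4bpa, a complement regulator (0.34), and Fcgr2b, an inhibitory antibody receptor (0.36). Cd8a and Fcgr2b shared the highest hypoxia value at replicate 3 with Pla2g2a, and all 3 shared its order in ambient, replicate 1 highest and replicate 3 lowest. Nearest to Ptgs2 were Angpt2, a vessel destabiliser (0.28), S100a8, a calcium-binding protein of neutrophils and monocytes (0.30), and Jam2, a junction protein of endothelium (0.31). All 3 had their highest value on hypoxia replicate 1, as Ptgs2 did. In ambient, Ptgs2 was highest on replicate 2, Angpt2 and Jam2 on replicate 1 and S100a8 on replicate 3. These distances describe likeness over 6 arrays in 2 groups, where any gene that differs by a similar amount comes out near.

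**Figure D4:**
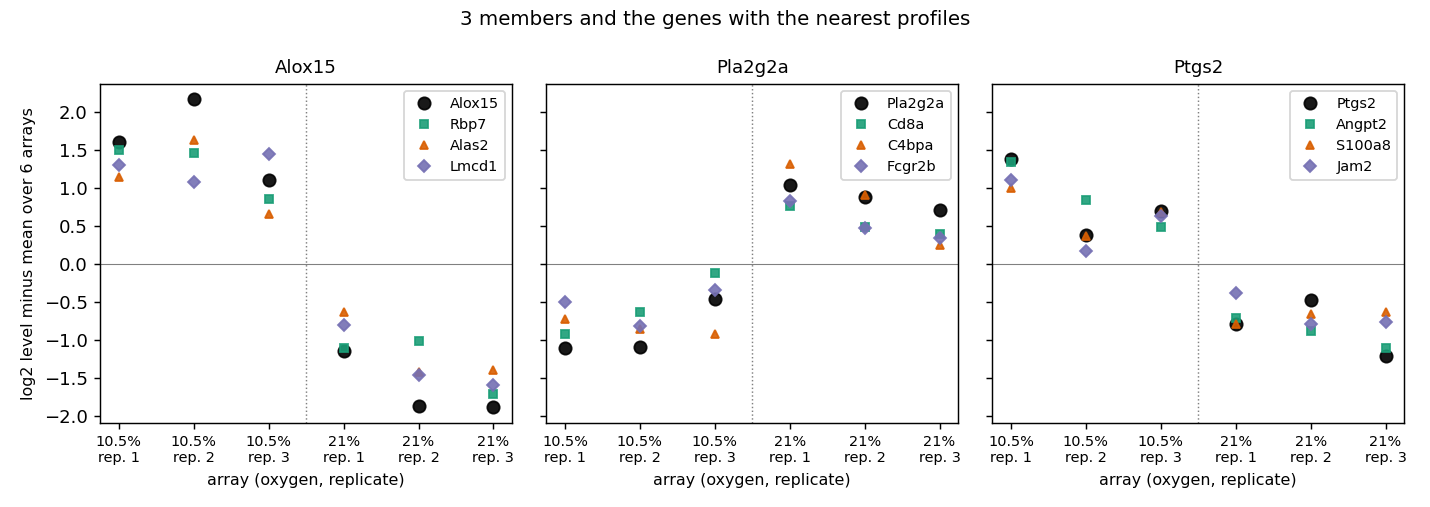
Log2 level minus the gene's own mean over the 6 arrays, by array (10.5% oxygen replicates 1 to 3, then 21% oxygen replicates 1 to 3), for Alox15, Pla2g2a and Ptgs2 (black circles) and the 3 genes nearest to each. The root mean square distances are 0.47 to 0.55 for Alox15, 0.34 to 0.36 for Pla2g2a and 0.28 to 0.31 for Ptgs2.

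Beside Ptgs2, 2 of 6 neutrophil markers rose (S100a8 by 1.38 and S100a9 by 1.67) and 0 fell, with a mean level of 6.22 to 6.66 in hypoxia and 6.13 to 6.42 in ambient. The list did not run one way. Lcn2, an iron-binding protein of neutrophil granules and epithelia, differed by -1.93 without overlap of the groups but did not pass (limma adjusted p = 0.131), and Camp, Cxcr2 and Csf3r were at bacterial control level on all arrays. Of 6 endothelial markers 2 rose (Vwf by 1.20 and Tie1 by 0.69) and 0 fell, with a mean level of 9.32 to 9.46 in hypoxia and 8.83 to 8.96 in ambient. Of 11 trophoblast markers 9 rose and 0 fell, with a mean level of 8.73 to 8.99 in hypoxia and 6.72 to 7.64 in ambient. Without hypoxia replicate 1 or hypoxia replicate 2, 5 rose, under a robust variance trend 6, and with the replicate block 10. The list includes the keratins Krt7, Krt8 and Krt18, whereas the keratin Krt19 of the epithelial list differed by -0.43. Of 8 mast cell markers only Kit rose, by 1.43, and that count was 0 without hypoxia replicate 1, ambient replicate 2 or ambient replicate 3. Of 8 decidual stroma markers, 1 rose (Hand2, a transcription factor of progesterone response, by 0.64) and 0 fell, with a mean level of 10.33 to 10.69 in hypoxia and 10.28 to 10.48 in ambient. The decidual products Prl8a2 and Igfbp1 differed by 1.73 and -1.94 without overlap of the groups, and neither passed (limma adjusted p = 0.0676 and 0.0518). With 1 array left out, 1 to 2 of the 8 rose and 0 to 1 fell. There were 2 that rose without hypoxia replicate 2 or 3, and 1 that fell without hypoxia replicate 1. With quantile normalization or median centring 1 fell, with array weights 2 rose, and with the replicate block 2 rose and 1 fell. The part of these cells in the difference of Ptgs2 was not tested.

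The rest of the pathway was then described beside the members. Of 73 other genes on 6 lists by role, 66 were measured, each by its probe set of highest mean. By limma 0 rose, 0 fell and 66 did not pass, where 4.61% of all genes passed. The 66 leave out Alox15, Pla2g2a and Ptgs2, which became members because they differed. The count of 0 thus comes from a list without its known changes and is not comparable with that share. At an unadjusted p under 0.05 there were 17 (25.8%), 9 higher and 8 lower, beside 22.0% of all genes. Their median difference was -0.05, beside -0.01 for all genes, and 3 differed by at least 0.5. Of the 66, 14 were at bacterial control level on all arrays.

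**Figure D5:**
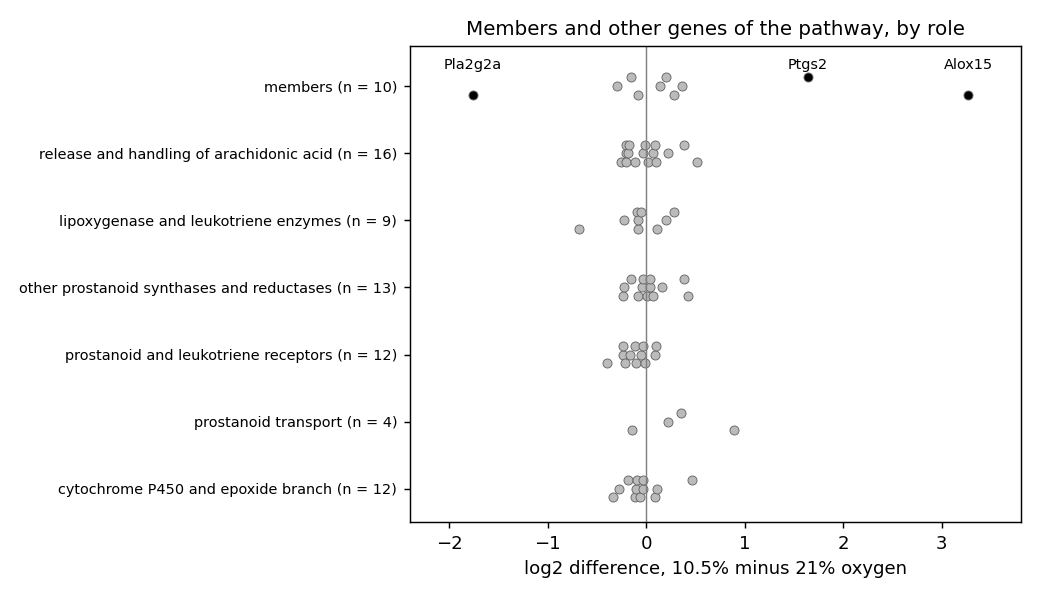
Log2 difference, 10.5% minus 21% oxygen, of the 10 members and of 66 other genes of the pathway by role, 1 point per gene (probe set of highest mean, n = 3 arrays per group; vertical offsets only separate points). Black points passed an adjusted p of 0.05 and grey points did not. The other genes lie between -0.68 and 0.89. The wider range of the members is set by Alox15, Ptgs2 and Pla2g2a, which were chosen because they differed. The 7 remaining members lie between -0.30 and 0.36.

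Among 16 genes of arachidonic acid release and handling, the smallest p belonged to Mgll and Pla2g12a. Mgll encodes monoglyceride lipase, which frees arachidonic acid from the endocannabinoid 2-arachidonoylglycerol. Its brightest probe set (1370831_at) read 7.85, 7.94 and 7.62 in hypoxia, against 7.66, 7.08 and 7.13 in ambient, a difference of 0.51 (SE 0.16, limma adjusted p = 0.122). Its 3 other probe sets were taken up after the values were seen, and 2 of them passed, at 0.59 (1388644_at, adjusted p = 0.0151) and 0.58 (1375247_at, 0.0316), and 1 did not, at 0.11 (1375355_at, 0.467). All 4 were higher in hypoxia, and at the last 3 the groups did not overlap. The call of 1388644_at was lost without hypoxia replicate 1, ambient replicate 2 or ambient replicate 3 (up to 0.0614), and that of 1375247_at without any 1 array but hypoxia replicate 3 (up to 0.104). The brightest probe set passed without ambient replicate 1 (0.0355). Pla2g12a, a secreted phospholipase of an atypical group, differed by 0.38 (SE 0.14, adjusted p = 0.173).

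Transport gave a similar case, also found after the values were seen. Slco2a1, the prostaglandin transporter that carries prostaglandins into cells for breakdown, read 8.16, 8.997 and 8.88 in hypoxia, against 8.37, 7.56 and 7.45 in ambient (1372889_at), a difference of 0.89 (SE 0.27, limma adjusted p = 0.117). Hypoxia replicate 1 lay below ambient replicate 1. At its second probe set (1387492_at) the values were 6.50, 6.75 and 6.69 in hypoxia, against 6.14, 5.74 and 6.01 in ambient. There the groups did not overlap, and it was higher by 0.68 (SE 0.12, adjusted p = 0.0237), a call lost without hypoxia replicate 2, ambient replicate 2 or ambient replicate 3 (up to 0.0813). Slco3a1, a relative that also carries prostaglandins, differed by 0.35 (SE 0.10, adjusted p = 0.0923) and by -0.05 at a second probe set.

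Enzymes of the lipoxygenase and leukotriene list (9 measured) and the other prostanoid synthases and reductases (13 measured) stayed below the threshold. Aloxe3, a lipoxygenase of the skin barrier, had the most negative difference of the 66 genes. It read 4.81, 5.08 and 5.28 in hypoxia, against 6.15, 5.50 and 5.58 in ambient, a difference of -0.68 (SE 0.18, limma adjusted p = 0.0808). Hypoxia replicate 1 lay below the bacterial controls of its array, so the hypoxia level of Aloxe3 was at or near background. Ptgr1, which reduces leukotriene B4 and prostaglandin metabolites, differed by 0.20 (adjusted p = 0.198). Cbr1, a carbonyl reductase that can convert prostaglandin E2 to F2 alpha, differed by -0.22 (adjusted p = 0.0982). Akr1c1 had an adjusted p of 0.105 but lay at bacterial control level on all arrays.

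Of 12 measured receptors, Ptger2, the prostaglandin E2 receptor that raises cyclic AMP, read 6.25, 6.36 and 6.07 in hypoxia, against 6.56, 6.55 and 6.76 in ambient, a difference of -0.39 (SE 0.11, limma adjusted p = 0.0868). Ptger4, which signals in the same way and was singled out after its values were seen, differed by -0.03 (adjusted p = 0.911). Cysltr1, a cysteinyl leukotriene receptor, had the smallest p of the 66 genes (adjusted p = 0.0565) at levels below the highest bacterial control of every array. In the cytochrome P450 branch (12 measured), Cyp4a1, a fatty acid hydroxylase, was likewise at bacterial control level (adjusted p = 0.136), and Cyp2j3, an epoxygenase, differed by 0.46 (SE 0.18, adjusted p = 0.197) and by 0.14 at a second probe set.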

How the data were processed

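The authors deposited 1 table of log2 expression values, 1 per probe set and array. The log2 scale was read from the values (2.98 to 14.9). RNA was Trizol-extracted and hybridised as biotinylated cRNA, per the labels' protocols. MAS5 and Affymetrix Expression Console are named, without a role, in the submitters' processing notes. How background was corrected, probes summarized and arrays scaled is not given in the sources used here, and these steps affect low signals most. Precision is limited by the number of arrays.

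After 57 control probe sets were left out, all 31042 others were fitted in R 4.3.3 with limma 3.58.1 (lmFit, eBayes with a mean-variance trend, group as the only term, two-sided). P-values were Benjamini-Hochberg adjusted over all of them, with a threshold of 0.05 and no filter on low means, unlike a filter that keeps 9 of the 13 member probe sets. Symbols came from the platform annotation (20826 probe sets with 1, 436 with several). Members and pathway genes, every probe set of a member and the 2 pathway genes with the smallest p per role list were named by rule. The rule for marker genes went by level or p, and not every gene it gave is printed. Prl8a2, Igfbp1 and Krt19, among others, were named outside that rule. The members and lists were chosen with earlier results of these data known. Alternatives were another filter, normalization, offset, variance model, array weights, a replicate block and each array left out. The fit was tested on simulated data. Promoters are RefSeq's (GRCr8).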

Additional observations from a re-analysis of the deposited data

How the results depend on the processing

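Alox15 and Pla2g2a kept their direction and their side of the threshold under all 14 alternatives, with differences of 2.36 to 3.53 and -1.97 to -1.65. Ptgs2 did so under 12 of the 13 in which it was tested, with 0.75 to 1.86. Differences changed sign for Ptges (-0.17 to 0.59 and -0.10 to 0.18 with 1 array left out, -0.17 and -0.10 without ambient replicate 3, -0.10 without hypoxia replicate 3) and Ptgds (-0.61 to 0.085, the highest without ambient replicate 1). The cause was not tested. Of the other pathway genes, 1 passed with the replicate block (Pla2g12a), 2 when the probe set with the smallest p was taken (Mgll and Slco2a1), and 0 to 1 with 1 array left out. Over all probe sets 1073 passed, 310 to 1076 with 1 array left out, where fewer samples entered the fit. Same-numbered arrays of the 2 groups did not deviate together (correlations -0.03 to 0.06), so the replicate block pairs them by number only. With it, 1426 probe sets passed, 4 member genes did in place of 3, and Ptgis (0.36) had an adjusted p of 0.0412. The alternatives for Mgll and Slco2a1 were chosen after seeing the data. Levels at bacterial controls limit Alox5, the ambient values of Ptgs2 and 14 pathway genes.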
